A study of Mus musculus with 18 samples.

Results

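The deposited table of regions bound by GATA6 held 42403 regions of the mouse genome (build mm10), and 61 of them lay at the 4 genes Gata6, Gata4, Sox17 and Sox7. A region was taken when its GATA6 summit, the base with the highest GATA6 signal, fell in the gene body or within 100 kb on either side. The windows were chr18:10952064-11185635 for Gata6 with 13 regions, chr14:63098922-63371692 for Gata4 with 24, chr1:4390931-4597354 for Sox17 with 11 and chr14:63843673-64050732 for Sox7 with 13. No window overlapped another. The gene bodies in the annotation (GENCODE release M21) gave the same windows. The cells were mouse embryonic stem (ES) cells of the KH2 line, of mixed C57BL/6 x 129/Sv background, in which doxycycline (Dox) turns on a Gata6 cassette, and the 18 libraries of the series are MNase-seq of untreated cells (d0) and of cells after 8, 16, 24, 48 and 96 h of Dox, with 3 libraries in each of 6 groups. All groups carried the cassette, the untreated cells included, and per the methods of the study its reading frame is that of the Gata6-201 transcript with a tag, inserted in picked clones. The signal values of the table came from other assays of the same study. They are ChIP-seq of GATA6, SOX17, OCT4 and SOX2, ATAC-seq, which reports open chromatin, and input DNA. They were taken at d0, 8 h, 16 h, d1, d2 and d4 (24, 48 and 96 h) and in XEN cells. XEN cells are a separate line of extraembryonic endoderm, which the study describes as wild-type. ESRRB was measured to d4. GATA6 and SOX17 were also measured at d2 after control siRNA or siRNA against Oct4. Each value is the authors' value for 1 assay and time, in library-size corrected reads within the region (called score below), with no replicate and no depth given, so no difference below carries an error or a test. Wide regions collect more reads, and the 61 regions had a median width of 728 bp against 525 bp in the whole table. Whether more cells or more binding per cell lies behind a higher score cannot be told apart in such bulk samples.

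GATA6 and GATA4 are zinc finger transcription factors that bind GATA motifs, and SOX17 and SOX7 are SoxF proteins with a High Mobility Group domain. All act in primitive endoderm (PrE), the extraembryonic layer that forms beside the epiblast of the blastocyst and gives rise to yolk sac endoderm. GATA6 stands at the top of this circuit and is followed by SOX17, GATA4 and SOX7. OCT4, SOX2 and ESRRB are pluripotency transcription factors (PTFs) of ES cells, and OCT4 and SOX2 often bind together at a composite motif. The regions thus show where GATA6 sat at its own gene and at the genes of its 3 partners, and which of the other factors were found at the same places.

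The GATA motif was readable in the regions nearest to a gene start and in those with the highest GATA6 score. Each line below gives the best match to the GATA6 matrix as located in the deposited table, with 8 flanking bases on each side in lower case and the matched bases in capitals. Sequences were read from the RefSeq GRCm38.p6 assembly, 5′ to 3′ on the strand of the match. A region is named by the distance of its summit from the gene start, with minus for upstream. The lines show, in order, the nearest regions of Gata4 and Sox7, 7 of the 8 regions with a GATA6 score in the top 1% of the table at some time from 8 h to d4, and 2 regions of Sox7 where GATA6 was later low.
Gata4 -0.1 kb, chr14:63271747-63271775, plus strand: cagcaaaaAATAGATAAGAAAagtgattc
Sox7 -1.2 kb, chr14:63942266-63942294, minus strand: tcaaggacCCTAGATAAAATTcatcaggg
Gata4 +40.4 kb, chr14:63231349-63231377, plus strand: ggggaagcCGCAGATAAGAAAcaattgaa
Gata4 +6.3 kb, chr14:63265420-63265448, plus strand: tggtgcggACCAGATTAGATAgcagccct
Gata4 -11.9 kb, chr14:63283715-63283743, minus strand: gtcgccacTGGAGATAAGGAGaatatata
Sox17 -40.3 kb, chr1:4538499-4538527, plus strand: gtgacggaGTAAGATAAGGAAtgtaaatg
Sox17 +22.7 kb, chr1:4474670-4474698, minus strand: acaggaccAGGAGATAAGCAGgctgggga
Sox17 +72.6 kb, chr1:4424745-4424773, minus strand: tgaggggaAAAAGATAAGACTcagattga
Sox7 +58.3 kb, chr14:64002853-64002881, minus strand: gtttgtttTTGAGATAAGATCtcattctg
Sox7 -7.0 kb, chr14:63936639-63936667, plus strand: ctaattccTAGAGATAACAGAcaactcac
Sox7 +23.2 kb, chr14:63966793-63966821, minus strand: gcaaccggGACAGATAAGGAAactgaggc
The core AGATAA was present in 10 of these 11 matches, all but that of Gata4 +6.3 kb. The 11 are a chosen set, and 59.5% of all 38052 best GATA6 matches held the core. Gata4 -67.1 kb, the top 1% region not shown, had no AGATAA in the 201 bp around its summit. At Sox17 +0.4 kb a GATA6 and a SOX17 match adjoined each other. They are shown here as 1 run, with both matches in capitals and 4 flanking bases on each side.
Sox17 +0.4 kb, chr1:4496993-4497022, plus strand: gactCTAAGATAACAGAGACAATAGTacca
The GATA6 matches lay from 1 bp (Sox17 +72.6 kb) to 908 bp (Sox7 +58.3 kb) from the summit.

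The 201 bp around the summit are shown for 4 regions whose GATA6 time courses are compared below, on the plus strand, with AGATAA and its reverse complement TTATCT in capitals.
Gata4 +40.4 kb, chr14:63231222-63231422, plus strand: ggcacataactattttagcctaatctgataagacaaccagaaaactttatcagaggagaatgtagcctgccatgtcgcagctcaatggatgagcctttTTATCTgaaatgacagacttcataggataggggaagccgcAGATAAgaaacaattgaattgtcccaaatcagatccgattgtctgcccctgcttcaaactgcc
Sox17 -40.3 kb, chr1:4537542-4537742, plus strand: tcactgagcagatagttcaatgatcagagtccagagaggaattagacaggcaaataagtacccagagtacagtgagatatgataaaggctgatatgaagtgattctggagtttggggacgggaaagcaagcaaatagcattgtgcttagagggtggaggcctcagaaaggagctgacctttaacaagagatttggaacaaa
Sox17 +72.6 kb, chr1:4424658-4424858, plus strand: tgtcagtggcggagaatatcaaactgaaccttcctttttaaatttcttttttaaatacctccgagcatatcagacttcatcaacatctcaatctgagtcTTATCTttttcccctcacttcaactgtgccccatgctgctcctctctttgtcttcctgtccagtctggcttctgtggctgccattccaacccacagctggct
Sox7 +58.3 kb, chr14:64001859-64002059, plus strand: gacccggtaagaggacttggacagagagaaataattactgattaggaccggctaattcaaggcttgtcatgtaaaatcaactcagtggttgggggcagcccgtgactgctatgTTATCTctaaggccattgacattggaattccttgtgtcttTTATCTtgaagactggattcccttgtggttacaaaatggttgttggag
This window held 2 copies at Gata4 +40.4 kb, 2 at Sox7 +58.3 kb, 1 at Sox17 +72.6 kb and 0 at Sox17 -40.3 kb. Over the 61 regions, 27 windows (44.3%) held AGATAA on either strand, against 54.3% of all 42403 windows of this length, and 11 (18.0%) held more than 1 copy, against 13.9%. A match to the GATA6 matrix anywhere in the region was given for 55 of the 61 (90.2%) and for 89.7% of all regions. Gata4 +40.4 kb held 13 GATA6 matches, the most of the 61.

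The 4 genes differed in how many regions surrounded them. Over 21938 protein-coding genes, the same window held a median of 5 regions, with an interquartile range of 2 to 9. Gata4 had 24 regions, more than 99.5% of these genes, and 89 genes had more. Gata6 and Sox7 had 13 each, more than 90.6% of genes, and Sox17 had 11, more than 83.9%. Per 100 kb of window, the number was 8.80 at Gata4, 6.28 at Sox7, 5.57 at Gata6 and 5.33 at Sox17, against a median of 2.03 over all genes. Gata4 and Sox7 lie on the same chromosome, and their windows share no region. A window is not an assignment to a gene. The nearest start of a protein-coding gene was that of Gata6 for 13 of its 13 regions, of Gata4 for 16 of 24, of Sox17 for 8 of 11 and of Sox7 for 4 of 13. At Gata4, the start of Neil2 was nearest to 4 regions and that of Blk to 2. At Sox17, Rp1 was nearest to 3. At Sox7, Rp1l1 was nearest to 4 and Pinx1 to 3.

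**Figure D1:**
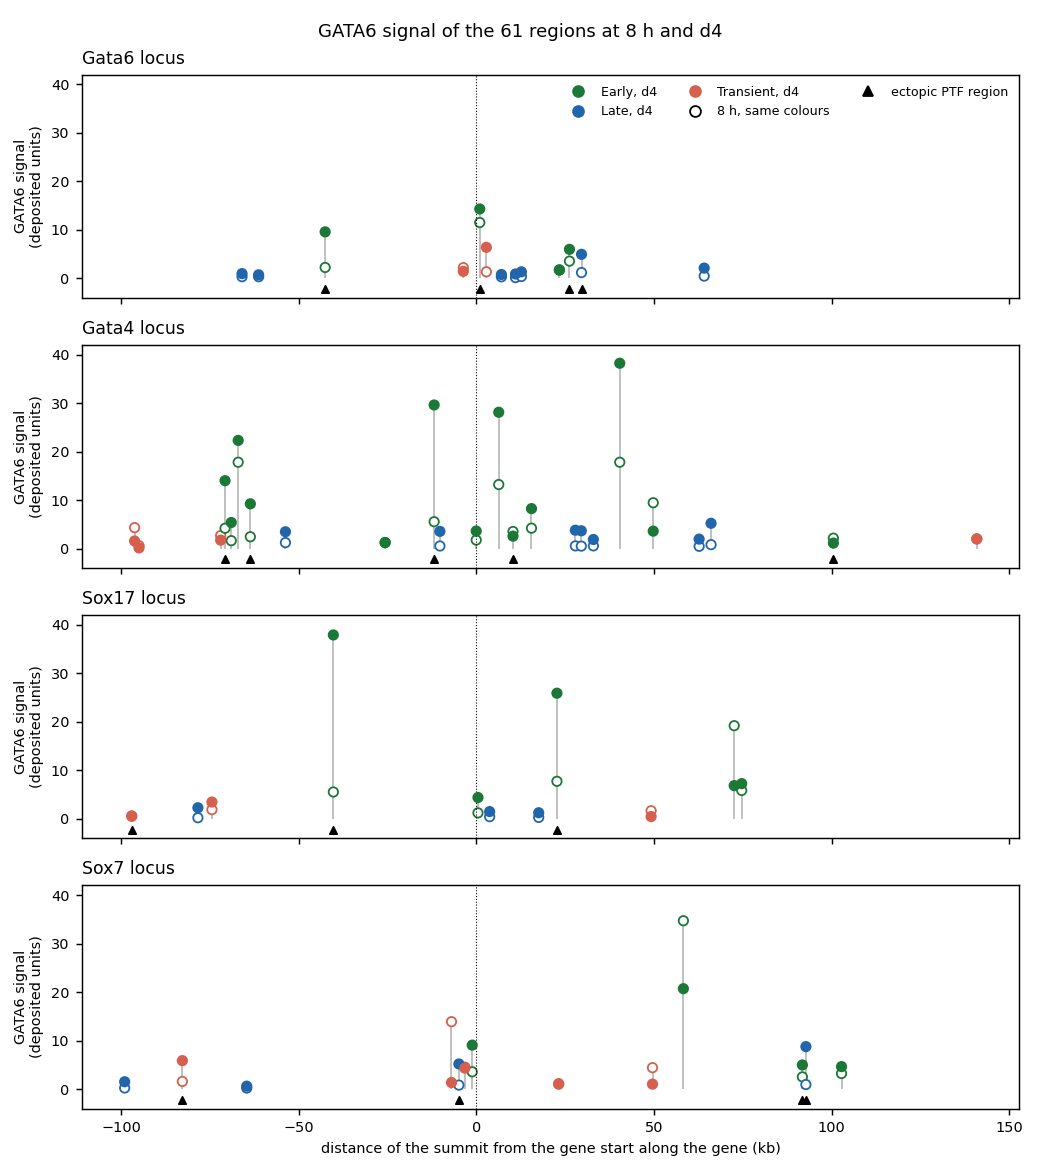
GATA6 score in deposited units (y axis) at 8 h (open points) and d4 (filled points) against the distance of the summit from the gene start in kb (x axis) for the 61 regions, by locus, coloured by the authors' time class, with a triangle under each ectopic region. The highest d4 points are Gata4 +40.4 kb (38.2) and Sox17 -40.3 kb (37.9), Sox7 +58.3 kb falls from 34.7 at 8 h to 20.7, and no d4 point of Gata6 is above 14.3.

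The authors' time classes come from the course of GATA6 itself. Early&Constant (Early) regions numbered 26 of the 61 (42.6%, 95% Wilson interval 31.0 to 55.1), where the table had 28.0%. Late regions numbered 21 (34.4%, all regions 33.6%) and Transient regions 14 (23.0%, all regions 38.4%). Gata4 had 13 Early regions of 24 and Gata6 had 7 Late regions of 13. Sox7 was the locus with the most Transient regions, 5 of 13, a share close to the 38.4% of all regions. These intervals, like those below, cover counting error over regions, which are sites of 1 genome and not replicates, and the 4 genes were picked with earlier results known.

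SOX17 peaks were called by the authors at 47 of the 61 regions (77.0%, 95% Wilson interval 65.1 to 85.8), where the table had 44.5%. The count was 10 of 13 at Gata6, 19 of 24 at Gata4, 9 of 11 at Sox17 and 9 of 13 at Sox7. The share was 22 of 26 in Early regions (84.6%, all regions 72.6%), 18 of 21 in Late regions (85.7%, all regions 53.4%) and 7 of 14 in Transient regions (all regions 16.2%). In each time class the share of the 61 was above that of the table. SOX17 thus sat at most regions of its own gene, and at Sox17 the 2 regions without it, -97.1 kb and +49.2 kb, were both Transient. A SOX17 motif was no more frequent than elsewhere. It was found in 43 regions (70.5%, all regions 69.2%), and the best one lay within 100 bp of the GATA6 summit in 16 (26.2%, all regions 33.5%).

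PTF peaks were present from d0 at 10 of the 61 regions (16.4%), where the table had 20.8%. None of these was at Gata6, 5 were at Gata4, 2 at Sox17 and 3 at Sox7. PTF peaks that appeared only after Dox, which the authors call ectopic, were found at 16 regions (26.2%, 95% Wilson interval 16.8 to 38.4), where the table had 16.6%. The counts of ectopic regions were 4 at Gata6, 5 at Gata4, 3 at Sox17 and 4 at Sox7. The place of the best match to the composite motif of OCT4 and SOX2 was compared between the groups. This match lay within 100 bp of the GATA6 summit in 4 of the 10 regions with PTFs from d0 (40.0%, all regions of this class 45.0%). In the 16 ectopic regions it did so in 0, where 25% of all ectopic regions had it. Over the whole table the share was 31.9%. The 16 were not empty of the motif, since 14 (87.5%) held a match somewhere. Only the best match of each region was placed, so a weaker match nearer to the summit is not counted. With 16 regions the share of 0 is loosely fixed, and the difference was not tested.

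Before Dox, most of the 61 regions were in closed chromatin. By the authors' ATAC-seq class at d0, 42 were closed (68.9%), where the table had 61.3%, 18 were moderate and 1 was accessible (1.64%), where the table had 7.43%. The accessible region was Sox17 +3.7 kb, in an exon of the Sox17 untranslated region. By the authors' clustering of ES cell histone data, 27 regions were facultative heterochromatin (44.3%, 95% Wilson interval 32.5 to 56.7), the state marked by H3K27me3, where the table had 22.3%. Of these, 14 were at Gata4, 6 at Sox7, 4 at Gata6 and 3 at Sox17. Poised enhancers numbered 14 (23.0%, all regions 14.6%). Regions of the state the authors named naive numbered 7 (11.5%), where the table had 18.0%, and 4 of them were at Sox17. No region was an active enhancer (0%, upper Wilson bound 5.92%), where the table had 11.2%. H3K27me3 is the mark laid down by Polycomb at silent developmental genes. At the region nearest to each gene start its ES cell value was 4.59 at Gata6, 2.76 at Gata4, 4.31 at Sox17 and 4.06 at Sox7, all at or above the 99.3 percentile of the table.

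The median GATA6 score was 0.490 at d0, 1.70 at 8 h, 2.67 at 16 h, 2.57 at d1, 2.72 at d2, 3.60 at d4 and 3.14 in XEN cells. In the whole table it was 0.490 at d0, 1.49 at 8 h and 1.29 at d4, so the d4 median was above the 8 h median in the 61 regions and below it in the table. The d0 values of GATA6 rest on few reads and, per the methods of the study, on a single chromatin preparation. All 61 were whole multiples of 0.163 (within 0.05 of a whole number). The median was 3 such steps, and 46 regions had 5 or fewer. Changes of GATA6 from d0 start from these values. The median SOX17 score was 0.757 at d0 and 0.768 at 8 h, reached 1.84 at d1 and 3.90 at d4, and was 2.62 in XEN cells. The table's SOX17 median was 1.10 at d4. The median ATAC score was 0.118 at d0, 0.108 at 8 h, 0.189 at 16 h, 0.247 at d1, 0.464 at d2 and 0.309 at d4. The time at which a score came to at least 50% of its highest value from d0 to d4 was 8 h or 16 h for GATA6 in 36 regions, with 5 more already there at d0. For SOX17 it was d1 in 22 regions, d2 in 16 and d4 in 14 (10733, 3901 and 8410 of all 42403 regions). For OCT4 it was d1 in 25 regions (7308 of all), but d0 in 10, 8 h in 7 and 16 h in 8. For ATAC it was d2 in 35 (12051 of all). By 16 h, 67.2% of the regions had come to this level for GATA6 (all regions 76.0%), 14.8% for SOX17 (all regions 45.7%), 41.0% for OCT4 (all regions 71.4%), 49.2% for SOX2 (all regions 76.2%) and 24.6% for ATAC (all regions 56.3%). These shares count regions already at this level at d0. Of all 42403 regions those numbered 16007 for SOX17, 25829 for OCT4, 27360 for SOX2 and 18747 for ATAC. Of the 61 they numbered 5, 10, 21 and 10. For these 4 assays the lower shares of the 61 thus do not by themselves show a later rise. For GATA6, 5 of the 61 and 2784 of all 42403 regions were at this level at d0, so this limit does not apply to its share. Whether the 61 rose later was not tested for any assay. Input was already at 50% of its highest score at d0 in 56 of the 61.

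In the 16 ectopic regions, ATAC came to 50% of its highest score at d2 in 15 of them and OCT4 at d1 in 12. Of all 42403 regions, 12051 did so at d2 for ATAC and 7308 at d1 for OCT4. The ectopic class itself asks for PTF peaks that appear after Dox, so a rise of OCT4 after d0 follows in part from the class. The same count over all ectopic regions was not made. In XEN cells the OCT4 score of the 61 regions had a median of 0.800 and a highest value of 5.20 at Gata4 -11.9 kb. These values came in steps of 0.133, and 28 regions had 5 steps or fewer. The methods of the study give a single chromatin preparation for OCT4 in XEN cells. The median ESRRB score was 0.822 at d0 and 0.695 at d4.

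**Figure D2:**
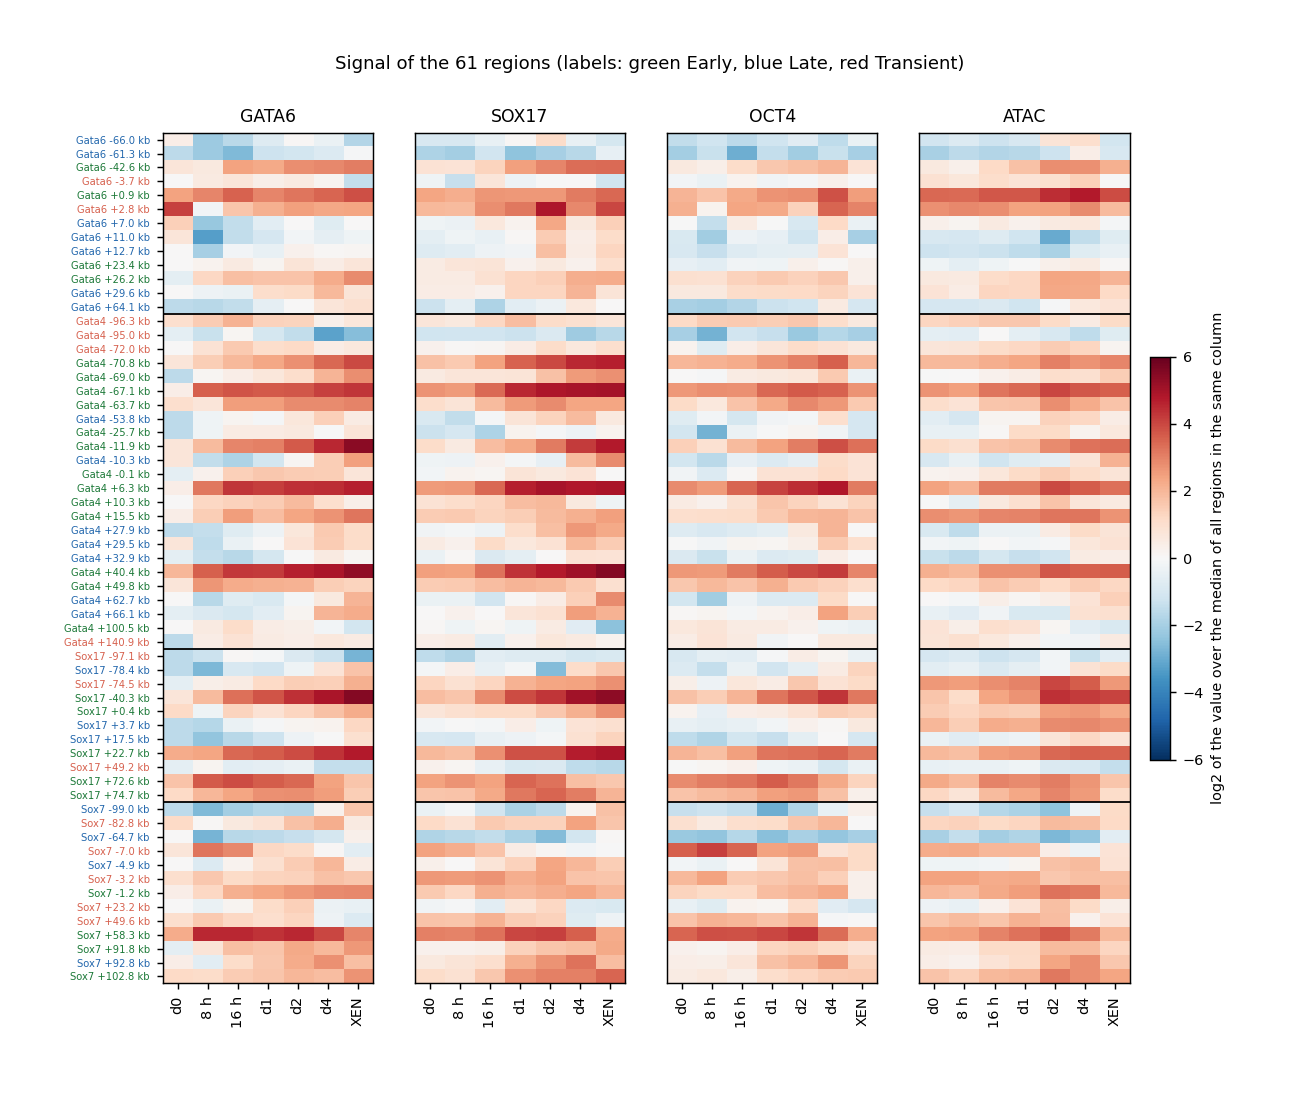
Heat map with the 61 regions in rows along each locus and d0 to d4 and XEN cells in columns, where colour is the log2 of the score over the median of all regions for the same assay and time, for GATA6, SOX17, OCT4 and ATAC. By d4 most rows lie above the median (48 of 61 for GATA6 and 49 for SOX17), and a few rows such as Gata4 +40.4 kb, Sox17 -40.3 kb and Sox7 +58.3 kb are dark in GATA6, SOX17 and OCT4 alike.

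At some time from 8 h to d4, 8 of the 61 regions were in the top 1% of the table for GATA6 (13.1%, all regions 2.18%). They were Gata4 -67.1 kb, -11.9 kb, +6.3 kb and +40.4 kb, Sox17 -40.3 kb, +22.7 kb and +72.6 kb, and Sox7 +58.3 kb. No region of Gata6 was among them. All 8 were Early, and they were wide, from 1149 bp at Gata4 -67.1 kb to 2473 bp at Gata4 +40.4 kb. Their input scores were high too. At d4 the input of Gata4 +40.4 kb was 3.87, the 99.8 percentile, beside a GATA6 score of 38.2. Per kb of width, the d4 GATA6 score stayed at or above the 99.4 percentile at Gata4 -67.1 kb, -11.9 kb, +6.3 kb and +40.4 kb, and at the 99.5 percentile at Sox17 -40.3 kb. It was at 97.3 at Sox17 +22.7 kb, 96.2 at Sox7 +58.3 kb and 56.1 at Sox17 +72.6 kb.

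Early regions with PTFs from d0 more often had no higher GATA6 score in XEN cells, a separate line, than at 8 h. Among the Early regions, the XEN score was above the 8 h score in 3 of 7 with PTFs from d0, in 9 of 11 ectopic and in 8 of 8 without PTFs. In the table these shares were 24.9%, 63.8% and 58.8%. In the induced cells, the d4 score was above the 8 h score in 4 of 7, 9 of 11 and 8 of 8. For d4 the table had 23.4%, 71.2% and 54.7%. The difference between the groups is a description of these regions, with no test.

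At Gata4, which encodes another GATA factor of the PrE, the strongest GATA6 scores were inside the gene and upstream of it. Gata4 +40.4 kb (chr14:63230600-63233072), in an intron, had GATA6 scores of 1.96 at d0, 17.8 at 8 h, 27.1 at 16 h, 23.5 at d1, 28.7 at d2, 38.2 at d4 and 54.1 in XEN cells. Its SOX17 score stayed at 2.94 at 8 h and came to 18.1 at d1 and 36.9 at d4. Gata4 +6.3 kb (chr14:63264284-63266085), also intronic, had GATA6 scores of 0.653, 13.2, 28.1, 22.7, 23.8 and 28.1 from d0 to d4 and 34.3 in XEN cells. It had the highest OCT4 score of the 61 at d4, 21.1, after 5.06 at d0. The SOX17 score of these regions was at the 99.3 and 99.6 percentile at 16 h, after the 96.2 and 96.9 percentile at d0. Their input was at the 99.9 and 98.7 percentile at 16 h.

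Upstream of the gene, Gata4 -11.9 kb (chr14:63282991-63284517) had GATA6 scores of 0.817, 5.54, 11.2, 10.6, 14.7 and 29.6 from d0 to d4 and 56.3 in XEN cells. Another 5 regions between -72.0 kb and -63.7 kb lay in introns of Gm5463, a gene model with no role known here. Gata4 -67.1 kb had PTF peaks from d0, a GATA6 score of 17.8 at 8 h and 22.3 at d4, and SOX17 scores of 3.57 at d0 and 34.2 at d4. Gata4 -70.8 kb rose more slowly, with GATA6 scores of 4.19 at 8 h, 14.0 at d4 and 20.8 in XEN cells. Gata4 -63.7 kb went from 0.980 at d0 to 8.20 at 16 h and 9.23 at d4. Gata4 -69.0 kb had 1.63 at 8 h and 5.38 at d4. Gata4 -72.0 kb, a Transient region, went from 4.25 at 16 h to 1.74 at d4. Neighbouring regions thus had different courses.

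The region nearest to the Gata4 start, -0.1 kb (chr14:63271477-63272037), was weak beside these. It had GATA6 scores of 0.327 at d0, 1.77 at 8 h, 3.85 at 16 h, 3.99 at d1, 3.29 at d2, 3.62 at d4 and 2.20 in XEN cells, with no SOX17 or PTF peak. All 7 Late regions of Gata4 had SOX17 peaks and no PTF peaks. They included +27.9 kb, +29.5 kb and +32.9 kb in introns, where GATA6 went from 0.163 to 3.79, from 0.817 to 3.67 and from 0.327 to 1.88 between d0 and d4. Gata4 +62.7 kb and +66.1 kb came to 1.95 and 5.22 at d4, and -10.3 kb and -53.8 kb to 3.55 and 3.47. Gata4 +15.5 kb, in the promoter state, had 8.13 at 16 h and 12.4 in XEN cells. In the other direction, Gata4 +49.8 kb went from 9.45 at 8 h to 3.60 at d4, and +100.5 kb, an ectopic region inside Fdft1, from 3.07 at 16 h to 1.14. Gata4 -96.3 kb, -95.0 kb and +140.9 kb were Transient with highest GATA6 scores of 6.08, 1.57 and 2.67, and -25.7 kb was Early with 2.03 at 16 h.

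At Sox17, the strongest regions lay between genes on both sides. Sox17 -40.3 kb (chr1:4536608-4538990) had GATA6 scores of 0.817 at d0, 5.54 at 8 h, 14.5 at 16 h, 17.4 at d1, 23.3 at d2, 37.9 at d4 and 61.1 in XEN cells, the highest XEN score of the 61. SOX17 itself had scores of 1.98 at d0, 1.71 at 8 h, 13.4 at d1 and 36.7 at d4 there. Its ATAC score went from 0.243 at d0 to 3.32 at d2 and 2.34 at d4. Sox17 +22.7 kb (chr1:4473107-4475478) had the same kind of course, with GATA6 scores of 2.29, 7.74, 15.6, 16.2, 16.8 and 25.9 from d0 to d4 and 36.3 in XEN cells. Both were ectopic, and both were in the naive state of the ES cell histone data.

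Sox17 +72.6 kb (chr1:4423566-4425737) had the opposite course. GATA6 scored 1.63 at d0, 19.2 at 8 h, 21.6 at 16 h, 16.2 at d1, 12.5 at d2, 6.85 at d4 and 4.30 in XEN cells. OCT4 scored 5.0 at d0, 12.0 at d1 and 3.65 at d4, and SOX17 scored 9.90 at d1 and 3.90 at d4. The authors' class of this region was Early. Its neighbour +74.7 kb held a GATA6 score of 5.86 at 8 h, 8.74 at d1, 7.26 at d4 and 3.74 in XEN cells. Both lie nearer to Rp1, a photoreceptor gene, than to Sox17. The region nearest to the Sox17 start, +0.4 kb (chr1:4496237-4497180), went from 1.14 at d0 and 1.24 at 8 h to 3.61 at 16 h, 4.40 at d4 and 6.30 in XEN cells. SOX17 went from 0.901 to 4.82 between d0 and d4 at this start of its own gene. Sox17 +3.7 kb went from 0.163 to 1.5, and -74.5 kb, a Transient region in the promoter state, from 0.327 to 3.47, with an ATAC score of 2.55 at d2. Sox17 -78.4 kb and +17.5 kb had 2.29 and 1.26 at d4 and 4.34 and 2.63 in XEN cells, and -97.1 kb and +49.2 kb had highest scores of 1.51 and 1.67.

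**Figure D3:**
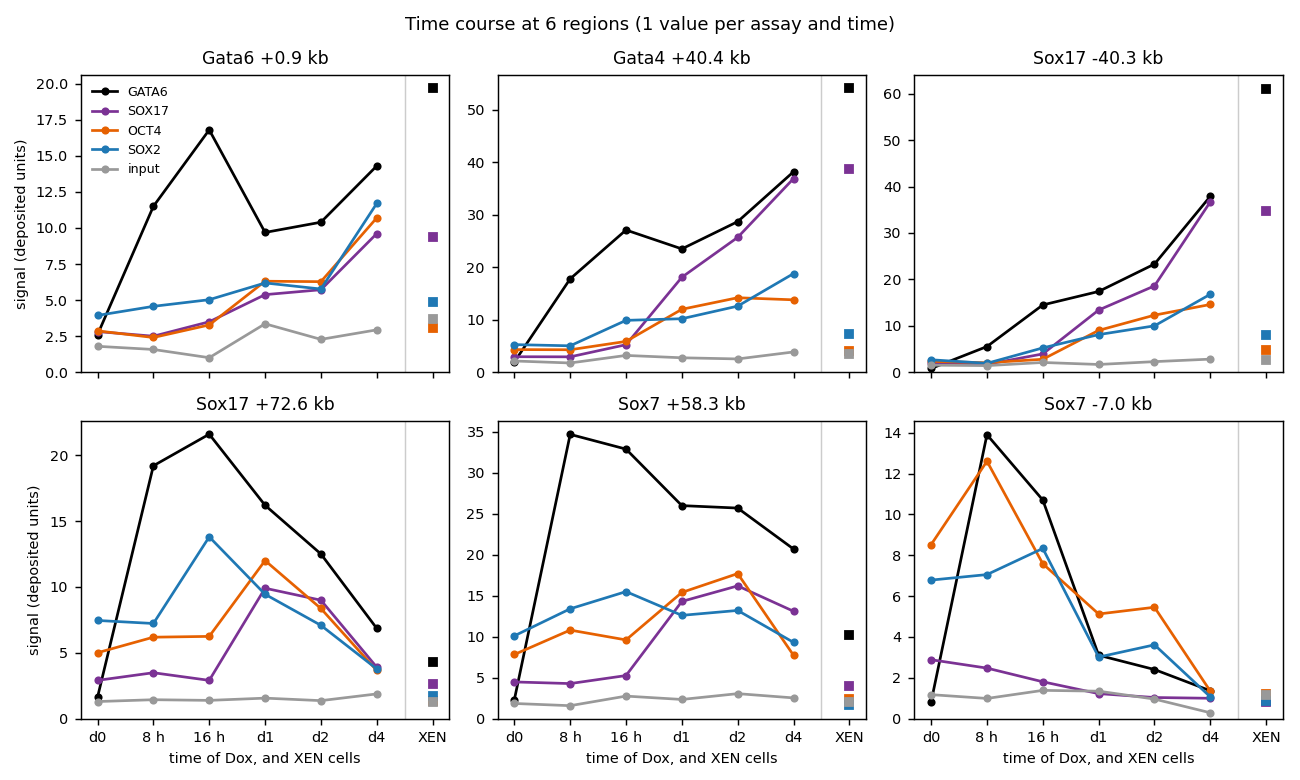
Scores of GATA6, SOX17, OCT4, SOX2 and input in deposited units (y axis, its range set for each region) against time of Dox and in XEN cells (x axis, squares) for 6 regions, with 1 value for each assay and time. Gata4 +40.4 kb and Sox17 -40.3 kb climb to 54.1 and 61.1 for GATA6 in XEN cells, whereas Sox17 +72.6 kb and Sox7 +58.3 kb fall after 8 h or 16 h to 4.30 and 10.2.

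At Sox7, the other SoxF gene here, several regions had a higher GATA6 score early than later. Sox7 +58.3 kb (chr14:64001160-64003240), in an intron of Rp1l1, had the highest GATA6 score of the 61 at 8 h. It scored 2.29 at d0, 34.7 at 8 h, 32.9 at 16 h, 26.0 at d1, 25.7 at d2, 20.7 at d4 and 10.2 in XEN cells. Its d4 GATA6 score was still at the 99.3 percentile of all regions. OCT4 scored 7.82 at d0 and SOX2 10.1, also before Dox. Sox7 -7.0 kb (chr14:63936168-63937095) went further down. Its GATA6 scores were 0.817, 13.9, 10.7, 3.10, 2.40, 1.36 and 0.868 in the same order, and its OCT4 scores were 8.52, 12.6, 7.58, 5.12, 5.45, 1.34 and 1.20. Its best OCT4 and SOX2 composite match had a score of 16.96 and lay 27 bp from the summit. Sox7 +49.6 kb, also bound by PTFs from d0, went from 4.42 at 8 h to 1.03 at d4. These 3 regions, all with PTFs from d0, had less GATA6 at d4 than at 8 h.

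Sox7 -1.2 kb (chr14:63941852-63942892) had GATA6 scores of 0.653, 3.57, 6.45, 6.63, 6.84 and 9.07 from d0 to d4 and 9.79 in XEN cells. Sox7 -4.9 kb, an ectopic Late region further upstream, went from 0.490 to 5.19 by d4 and was at 1.83 in XEN cells, with SOX17 at 4.93 at d2. Sox7 -3.2 kb, between them and classed Transient, was at 4.53 at 8 h and 4.33 at d4, and its SOX17 score was already 3.28 at d0. That SOX17 score was at the 97.1 percentile, and the input of this region at d0 was at the 98.0 percentile. On the far downstream side, the ectopic regions +91.8 kb and +92.8 kb came to 4.98 and 8.76 at d4 and were at 8.11 and 4.63 in XEN cells, and +102.8 kb came to 4.64 and was at 8.62. Sox7 -82.8 kb, in an intron beside the Pinx1 start and also ectopic, came to 5.87 at d4 and was at 1.97 in XEN cells. Sox7 +23.2 kb went from 3.01 at d2 to 1.02 at d4. Sox7 -99.0 kb and -64.7 kb were low to d2, with 4.25 and 1.63 in XEN cells.

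At Gata6 itself, the region nearest to the start was the strongest. Gata6 +0.9 kb (chr18:11051211-11053515), over the start and the beginning of the gene, had GATA6 scores of 2.61 at d0, 11.5 at 8 h, 16.8 at 16 h, 9.69 at d1, 10.4 at d2, 14.3 at d4 and 19.7 in XEN cells. Its ATAC scores were 0.860 at d0, 3.42 at d2 and 3.49 at d4, the highest of the 61 at d4 without regard to width. Per kb its d4 ATAC score was at the 98.0 percentile, below the 99.4 of Sox17 +3.7 kb and the 99.2 of Sox17 -74.5 kb. SOX17 scored 2.82 at d0 and 9.61 at d4, and OCT4 2.87 and 10.7. Its input also rose, from 1.80 at d0 to 3.36 at d1 and 2.94 at d4, which is the 99.5 percentile, and per kb of width its d4 GATA6 score was at the 85.1 percentile.

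Away from the start, Gata6 -42.6 kb (chr18:11009081-11010048), in an intron of 1010001N08Rik, was the clearest region. Its GATA6 scores were 0.817, 2.24, 7.73, 6.33, 7.73 and 9.58 from d0 to d4 and 11.1 in XEN cells, and SOX17 went from 0.991 to 11.2. Per kb, its GATA6 score at d4 was at the 96.1 percentile. Gata6 +26.2 kb, in a Gata6 intron, came to 5.98 at d4 and 9.48 in XEN cells, and +29.6 kb to 4.95 at d4 and 2.30 in XEN cells. All 4 of these regions were ectopic, and OCT4 was at 2.96 at d1 at -42.6 kb after 1.07 at d0. Input at -42.6 kb rose too, from 0.566 at d0 to 1.11 at d1 and 1.67 at d4, the 95.9 percentile. The other regions were low. Gata6 +23.4 kb came to 2.08 at 16 h, +64.1 kb to 2.11 at d4 and -3.7 kb to 2.39 at 16 h. Gata6 -61.3 kb and -66.0 kb, upstream by 60 to 70 kb, had highest scores of 0.729 and 1.20 over the course.

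At Gata6, 4 regions lay over the coding exons and had values that went together. Gata6 +2.8 kb, +7.0 kb, +11.0 kb and +12.7 kb covered 1117, 167, 126 and 129 bp of the coding sequence, in all 1539 of 1767 bp. The cassette carries the same coding sequence, so in the Dox-inducible cells reads from it and from the gene cannot be told apart. XEN cells are a separate line, which the study describes as wild-type. At +2.8 kb the GATA6 score was 8.49 at d0, the highest of the 61 before Dox, and 1.35 at 8 h. Its input varied from 0.914 at 8 h to 7.55 at d1, with 4.03 at d0 and 3.79 in XEN cells. Its SOX17 score was 27.5 at d2 and 13.5 in XEN cells but 1.49 in the separate d2 cells given control siRNA. Its ESRRB score at d4 was 18.1, the maximum of the table.

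The other 3 followed in step at lower levels. Relative to the table's median, their SOX17 score at d2 was 2.91 to 5.03 times as high and their ESRRB score at d4 was 4.79 to 5.86 times as high, while SOX17 after control siRNA was 0.282 to 0.377 times the median. Their GATA6 score at 8 h was 0.102 to 0.253 times the median. At the intronic region +23.4 kb the ratio was 1.5 for SOX17 at d2 and 1.08 for ESRRB at d4, and at +26.2 kb 2.66 and 1.62. The part of the cassette in this was not tested. Without the 4 regions, SOX17 peaks were at 43 of 57 regions (75.4%) and at 6 of 9 regions of Gata6 (66.7%), and 18 Late regions were left.

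**Figure D4:**
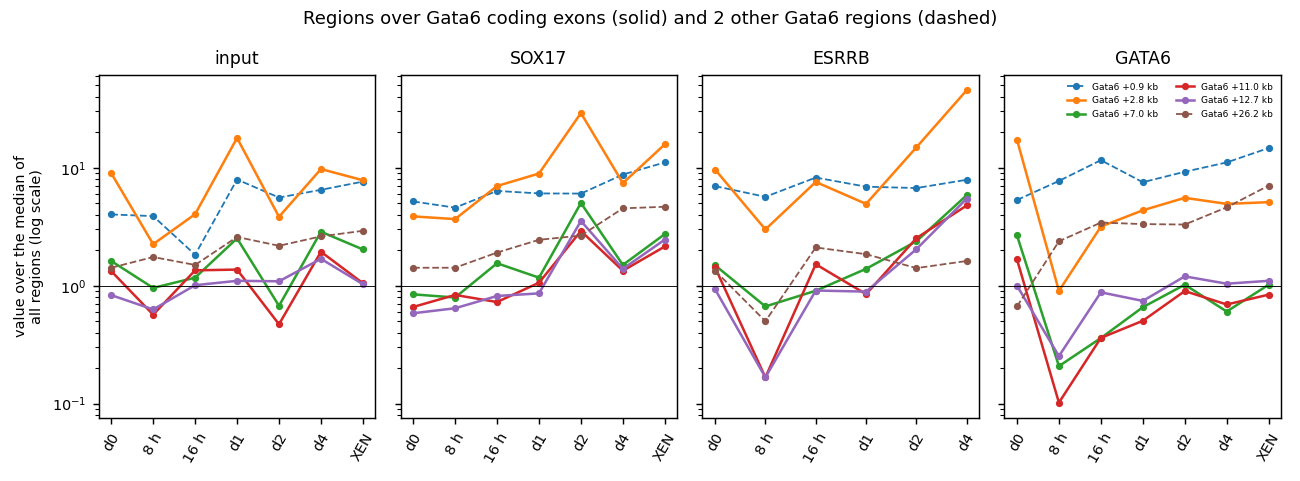
Score over the median of all regions for the same assay (y axis, log scale) from d0 to d4 and in XEN cells (x axis) for input, SOX17, ESRRB and GATA6, at the 4 regions over Gata6 coding exons (solid) and at Gata6 +0.9 kb and +26.2 kb (dashed). The solid lines peak together for SOX17 at d2 (2.91 to 29.1 times the median) and are highest for ESRRB at d4 (4.79 to 45.5 times), and they drop together at 8 h for GATA6.

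Lowering Oct4 changed few of the 61 regions by the authors' test. GATA6 was classed as decreased at 2 (3.28%), where the table had 6.25%, and as increased at 3 (4.92%), where the table had 8.57%. The decreased regions were Sox17 +72.6 kb, with GATA6 at 30.1 after control siRNA and 17.1 after siRNA against Oct4, and Gata4 +10.3 kb, with 6.16 and 3.71. The increased regions were Gata4 -70.8 kb (8.21 and 12.8), Gata4 +66.1 kb (3.37 and 6.86) and Gata6 +64.1 kb (2.07 and 3.90). Other regions with a large change were classed unchanged, such as Gata6 -66.0 kb (2.33 and 1.34) and Sox7 -7.0 kb (2.03 and 0.883). The median log2 ratio of GATA6 was 0.02 over the 61 regions and -0.00 over the table. Gata6 +0.9 kb had 15.7 and 17.5, Gata4 +40.4 kb 52.2 and 50.9, and Sox17 -40.3 kb 47.1 and 52.8.

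SOX17 was higher after siRNA against Oct4 in the whole table, with a median log2 ratio of 0.50, and the 61 regions had 0.62. By locus the median was 0.62 at Gata6, 0.61 at Gata4, 0.56 at Sox17 and 0.62 at Sox7. Sox17 +72.6 kb went the other way, from 12.5 to 9.29. At Gata4 -70.8 kb the SOX17 score was 8.74 and 18.6, and at Gata4 +66.1 kb 1.46 and 4.86. The median of the 61 regions was 0.62 where the whole table was already shifted to 0.50, so a higher SOX17 score here was not particular to them.

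**Figure D5:**
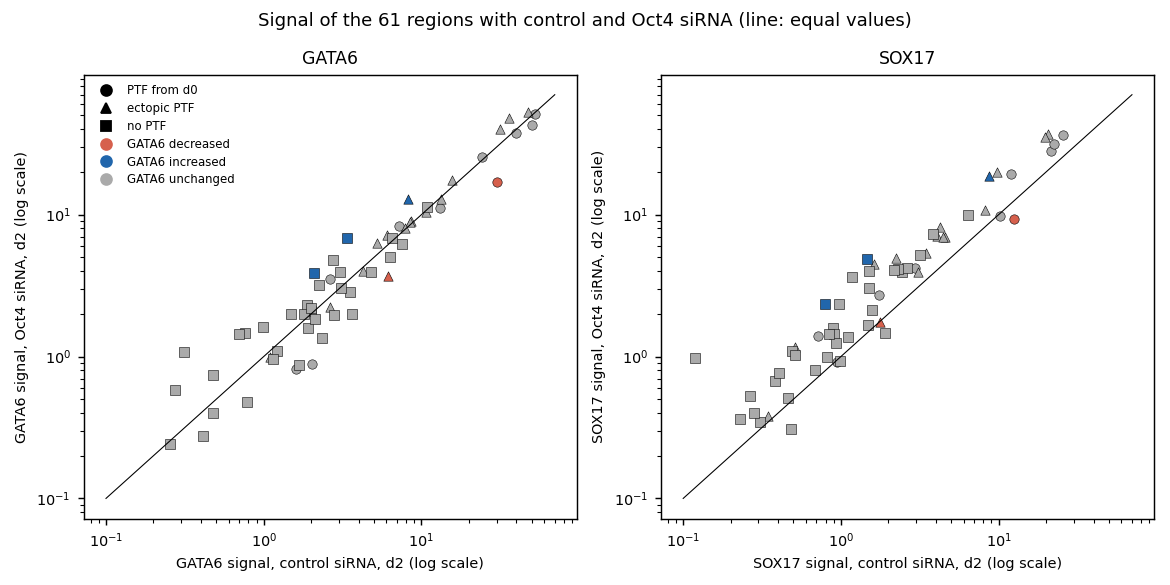
Score after siRNA against Oct4 (y axis) against score after control siRNA (x axis) at d2, both on log scales in deposited units, for GATA6 on the left and SOX17 on the right, with 1 point for each of the 61 regions, coloured by the authors' class and shaped by PTF class. The GATA6 points scatter around the line of equal values, with 2 decreased below it and 3 increased above it, and most SOX17 points lie above the line.

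The same window rule was applied to 11 other genes of endoderm and of the GATA and SoxF families (Gata1, Gata2, Gata3, Gata5, Sox18, Foxa1, Foxa2, Hnf4a, Eomes, Pdgfra and Dab2). They had 126 regions, of which 34.1% were Early, 55.6% had SOX17 peaks, 29.4% were ectopic and 17.5% had PTFs from d0. Of the 11, Foxa2, a forkhead factor of endoderm, had 27 regions, and the others had fewer than Gata4. Pdgfra, the receptor used as a PrE marker, had 20, and Dab2, an endocytic adaptor of the PrE, 15. Gata2 had 7 and Sox18, the remaining SoxF gene, 4. At 3 pluripotency genes (Nanog, Esrrb and Tfcp2l1), 47 regions were found, of which 46.8% had PTFs from d0, 31.9% were accessible and 21.3% were closed. At the 61 regions these shares were 16.4%, 1.64% and 68.9%. At the 126 regions of the 11 other genes they were 17.5%, 3.97% and 69.0%, so the closed share was not particular to the 4 loci.

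By the 48 score columns together, the regions most like the one at each gene start were sought only outside the 4 windows. Other regions of the 4 loci could therefore not be returned. Likeness was the Euclidean distance over the log2 scores, each scaled over all regions, so the width of a region enters it. For Gata6 +0.9 kb, the nearest was a region 13 bp from the start of Ddit3, with a distance of 2.31 where the median region had 15.99, followed by 1 at 4.1 kb from Gata2 (2.34) and 1 at 10.4 kb from Rdh7 (2.37). All 3 were Early, ectopic and SOX17-bound. For Gata4 -0.1 kb the nearest starts were, in order, those of Arglu1 (353.3 kb away), Klhdc2 (2.6 kb) and Prmt8 (81.8 kb). The Euclidean distances were 2.64 to 2.71. For Sox17 +0.4 kb the starts were those of Klf5 (285.9 kb), Vps35l (2.4 kb) and Cox4i2 (12.7 kb), with Euclidean distances of 2.18 to 2.39. For Sox7 -1.2 kb they were those of Gpr146 (4.6 kb), Gm10260 (21.6 kb) and Btbd16 (23.3 kb), with 1.88 to 1.98.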

How the data were processed

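The deposited table of GATA6 regions has 105 columns. The authors aligned reads with Bowtie2 to mm10, called GATA6 peaks and gave each region classes and 1 library-size corrected read value per assay and time (bamsignals), here treated as a score, without a spread or n. Histone values of public ES cell data and motif score columns were also deposited by the authors. The Oct4 knockdown class came from the authors' own differential test. MNase signal was not analysed here, since the table gives none, and the table gives no read totals.

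Regions were taken by summit position. Percentiles are over all 42403 regions. Log2 changes from d0 used the 5th percentile of each assay as pseudocount (0.168 for GATA6). Annotation was GENCODE release M21, and sequences came from RefSeq GRCm38.p6. The deposited positions were checked on the motifs: 59.5% of 38052 best GATA6 matches held AGATAA at the expected base, and 0% and 0.0131% with a shift of 1 base. Described singly by rule were 39 regions: the nearest to each start, the highest GATA6 score, the best motif, those in the gene, the ectopic ones, those 60 to 70 kb upstream of Gata6 and those at Sox17 in the top 1% for SOX17. The other 22 were named after their values were seen. The regions, gene lists and comparisons were chosen with earlier results of these data known. Of the endoderm list, 1 gene is not reported here. No test was run. A script for percentiles and times was tested on simulated data. The work used Python (3.11.15) with pandas (2.3.3), numpy (2.4.6), scipy (1.17.1) and matplotlib (3.10.9).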

Additional observations from a re-analysis of the deposited data

How the results depend on the processing

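Of 112 recomputed values over 29 results, 99 stayed close to the reported value. With windows of 50 kb each side, Gata4 had 15 regions, Sox17 6 and Sox7 6. Keeping regions whose highest GATA6 score was at or above the table's median left 5 at Gata6 and 6 at Sox17. Per 100 kb of window, Gata6 was at place 3 of the 4 genes, not 2. With the 25th percentile as pseudocount, the median log2 change of GATA6 from d0 to d4 was 1.71 in place of 2.20. Counting only a best GATA6 match within 100 bp of the summit gave 62.3% in place of 90.2%. The median GATA6 motif score of the 61 regions minus that of all regions was 0.19 for the best match and turned to -0.06 for the mean of a region's matches. The median number of GATA6 matches over that of all regions was 1.5 and turned to 0.94 per kb of width, since the regions are wide. Taking the highest region in place of the nearest, the d4 GATA6 score was 38.2 at Gata4 (3.62 at the nearest), 37.9 at Sox17 (4.40) and 20.7 at Sox7 (9.07). It was 14.3 at Gata6 both ways. No alternative was run for the other genes of the network. No paired analysis was possible because the columns carry no replicate number and the results come from no test. No replicate could be left out for the same reason.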
